A study of Vitis vinifera with 16 samples.

Results

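Pea-size berries of Gaotai (GT) were compared with pea-size berries of Changli (CL) across the transcriptome, in 4 of the 16 samples of the series. All 4 were deseeded berries of the white grape 'Muscat Blanc a Petits Grains' at stage E-L31 of the Eichhorn-Lorenz scale, when the green berry is still hard and growing. The groups were GT in 2011, GT in 2010, CL in 2011 and CL in 2010, each 1 sample with 1 RNA-seq library. GT lies in the dry northwest of China (Gansu) and CL in the east (Hebei), and the GT vines were planted some years before those of CL. Region, age of the vines and vineyard therefore cannot be told apart. Each RNA came from berries pooled over many clusters. The vintages are the only replicates, so the p-values measure the spread between years and libraries together. Transcript levels were deposited for 23984 RefSeq mRNAs as read counts and as RPKM (reads scaled to transcript length and to the mapped total of the library), and 17707 mRNAs had at least 40 counts over the 4 samples.

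A grape berry grows in 2 phases with a lag between them, and véraison (E-L35) is the turn from growth to softening, sugar gain and loss of acid. The green berry makes tannins and organic acids and keeps many transcription factors active that respond to wounding, cold, drought and pathogens. WRKY proteins and ERF proteins are the families best known for such responses, the first mainly in defence and the second downstream of ethylene and other stress signals. At véraison, transcripts of sugar transport, wall loosening and aroma rise and many of these regulators fall.

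The libraries differed in depth. GT had 10319616 counts in 2011 and 3798921 counts in 2010, against 17537207 in 2011 and 18800778 in 2010 for CL, so the 2010 ratio rests on the shallowest library of the series. Between 84.0% and 86.2% of the counts of these samples mapped to 1 transcript. The GT sample of 2011 stood apart from the other 3. Berries are mixed tissue, so fewer cells of a type and less RNA per cell cannot be told apart in any value given here. The log2 levels of GT in 2011 correlated at 0.960 with GT at E-L35 of 2010 and at 0.852 to 0.885 with the other E-L31 samples, across the 17707 mRNAs. The other 3 E-L31 samples correlated with each other at 0.872 to 0.941. The labelled tissue could not be checked with seed or green tissue markers, because fewer than 3 of either list carry a symbol in the reference table.

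The regional ratio was therefore taken in each vintage apart. It is the difference in log2 CPM (counts scaled to the library size) between GT and CL, where a value of 1 is a 2-fold higher level in GT. In 2011, 1363 mRNAs were 2-fold or more higher and 2632 were 2-fold or more lower in GT. In 2010, 1003 were higher and 1720 were lower. The 2 ratios share no sample, and their Pearson correlation across mRNAs was 0.163. Of the 1336 mRNAs past 2-fold in both vintages, 904 went the same way. The median ratio over all 17707 was -0.04 in 2011 and -0.05 in 2010.

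These ratios gave 7 patterns. In both vintages, 194 mRNAs (1.1%) were 2-fold or more higher in GT and 710 (4.01%) were 2-fold or more lower. In 2011 only, 588 (3.32%) were higher and 1080 (6.1%) were lower, with a 2010 ratio under 0.5 in size. In 2010 only, 352 (1.99%) were higher and 431 (2.43%) were lower by the same limits. A further 432 (2.44%) passed 2-fold in opposite directions. The other mRNAs were under 2-fold in both vintages, or lay between the limits. The patterns are descriptions, since the values themselves choose their members, and no pattern is a tested difference between vintages. Some 2010 ratios in the 2011 only pattern lay off 0 by an interval that covers counting error only. Of the 588 higher, this interval lay above 0 for 55 and below 0 for 66. Of the 1080 lower, it lay above 0 for 120 and below 0 for 136.

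**Figure D1:**
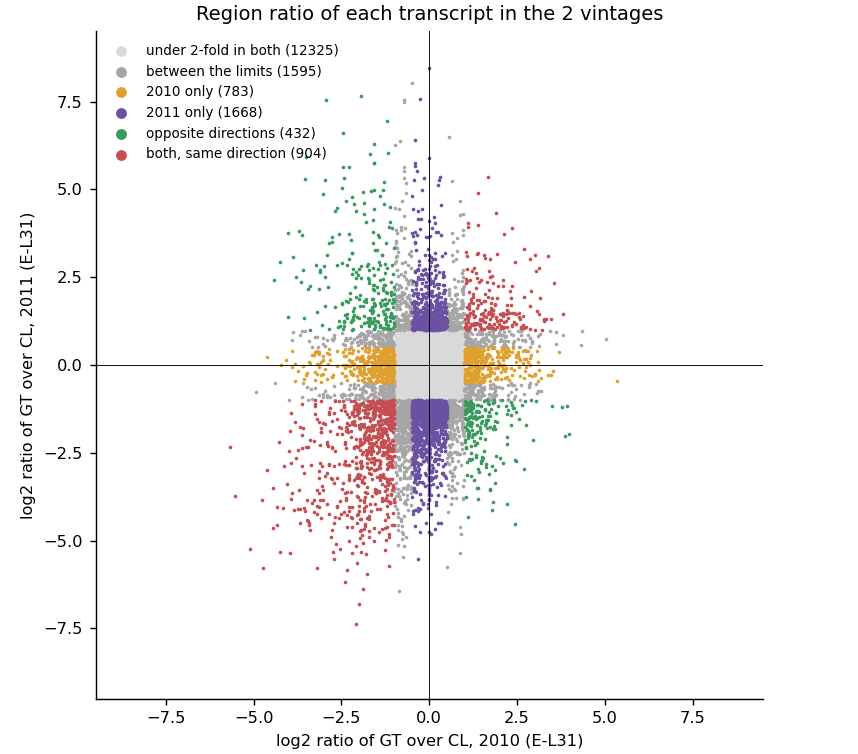
Log2 ratio of GT over CL at E-L31 for each of 17707 mRNAs, with the 2010 ratio on the horizontal axis and the 2011 ratio on the vertical axis, coloured by pattern with the number of mRNAs in the key. The 710 mRNAs lower in both vintages fill the lower left corner, and the corner of the 194 higher in both is sparse.

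The test of GT over CL with the vintages as replicates called no mRNA. In edgeR's quasi-likelihood test (adjusted p of at most 0.05 and at least 2-fold), 0% of 19026 mRNAs were called higher and 0% lower. The smallest adjusted p was 0.0936, and 2654 mRNAs had an unadjusted p under 0.05. DESeq2 called 453 and limma on log2(RPKM + 1) called 93 on the same contrast. Without the GT sample of 2010, which leaves GT to its 2011 sample, the same edgeR test called 749, and without GT of 2011, CL of 2011 or CL of 2010 it called 0, 0 and 1. The 41 mRNAs with an adjusted p under 0.1 held 21 of those lower in both vintages and 11 of those higher in both.

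Each vintage was also tested alone, with the spread taken from the vintages of the later stages, so that the lone samples are assumed to vary like them. In 2011, edgeR called 153 mRNAs (0.804%) higher and 83 (0.436%) lower in GT. In 2010 it called 0% in either direction, with 1645 at an unadjusted p under 0.05, and DESeq2 called 109. The test of the difference between the vintages' ratios called 51 mRNAs (0.268%) with a higher ratio in 2011 and 8 (0.042%) with a lower one. The 153 mRNAs that rose in 2011 held 61 of the 2011 only pattern and 4 of those higher in both vintages. The 83 that fell held 30 of the 2011 only pattern and 30 of those lower in both.

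The 2011 ratio followed the course of development. The change of CL between E-L31 and E-L35 in 2010, called its step here, shares no sample with the 2011 ratio, and their correlation across the 17707 mRNAs was 0.618. With the same step in GT in 2010 it was 0.501. The 2010 ratio and the step of CL in 2011 correlated at 0.031. Of the 153 mRNAs that rose in GT in 2011, 141 (92.2%) were 2-fold or more higher at E-L35 than at E-L31 in CL in 2010, against 8.56% of all mRNAs. Of the 83 that fell, 52 (62.7%) were 2-fold or more lower at E-L35, against 14.6% of all. The 2010 ratio had no such side. Of the 1003 mRNAs 2-fold or more higher in GT in 2010, 144 (14.4%) were 2-fold or more higher at E-L35 in CL in 2011. Another 274 (27.3%) were 2-fold or more lower. Of the 1720 lower in GT, 277 (16.1%) were higher and 583 (33.9%) lower at E-L35. Over all mRNAs 6.67% were higher and 14.9% lower on this step, so both sets exceeded both shares.

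**Figure D2:**
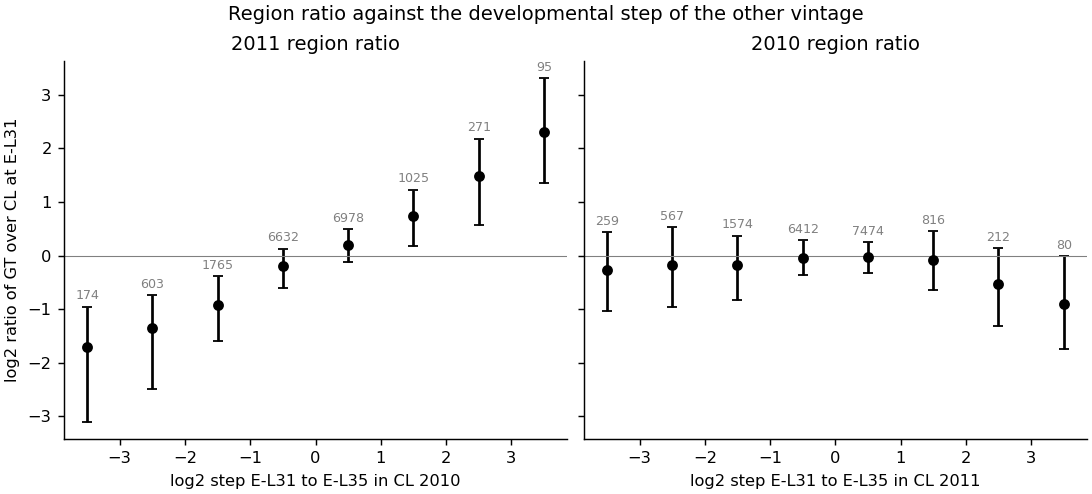
Log2 ratio of GT over CL at E-L31 (vertical) in bins of the log2 step from E-L31 to E-L35 of CL in the other vintage (horizontal). Points are medians, bars span the quartiles and the number over each bar counts mRNAs. The 2011 medians run between -1.71 and 2.31 along the step. The 2010 medians run between -0.91 and -0.04 and do not rise along it. They are lowest, at -0.53 and -0.91, in the bins of the largest gains, from 2 to 4.

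The place of each sample on this step was read from the mRNAs that moved most. Among the 491 mRNAs that were 4-fold or more higher at E-L35 in CL in 2010, the median mRNA of GT at E-L31 in 2011 had covered 86.1% of the step, and that of CL at E-L31 in 2011 had covered 17.8%. Among the 816 that were 4-fold or more lower, the values were 68.4% in GT and 11.1% in CL. By the same measure along the CL step of 2011, GT at E-L31 in 2010 stood at -21.0% for the 365 gained mRNAs and at 41.5% for the 1066 lost ones. CL in 2010 stood at 1.95% and 27.1%.

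**Figure D3:**
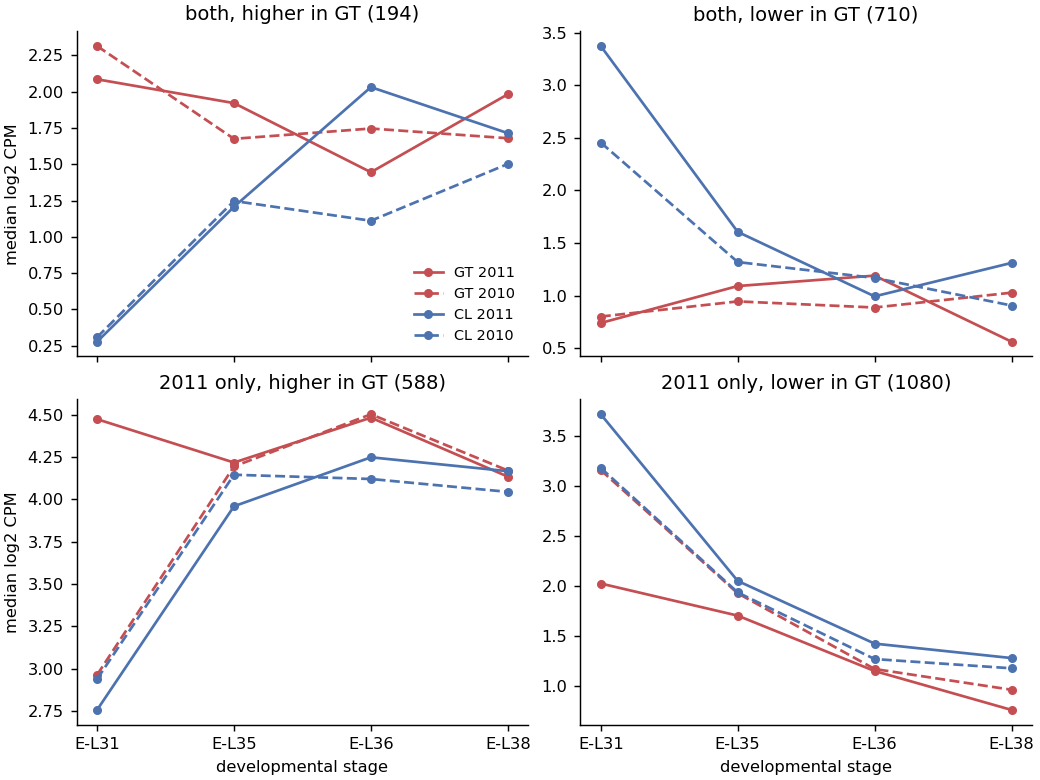
Median log2 CPM of the members of 4 patterns at the 4 stages, with GT in red and CL in blue, 2011 as solid and 2010 as broken lines. At E-L31 the members are chosen by these values, and from E-L35 on the lines run close together in the 2011 only patterns.

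The later stages show how far the patterns lasted. At E-L35, the 194 mRNAs that were higher in both years had a median ratio of 0.72 in 2011 and 0.27 in 2010, and those lower in both had -0.43 in 2011 and -0.27 in 2010. The medians over all mRNAs at E-L35 were -0.03 and -0.01. Of the 710 lower in both, 63 were again 2-fold or more lower in GT at E-L35 in both vintages. Of the 194 higher in both, 29 were again higher. The same held for 72 of the 1080 lower and 44 of the 588 higher in 2011 only. Over all 17707 mRNAs, 391 were 2-fold or more higher at E-L35 in both vintages, and the share lower was not taken. By any amount, 344 of the 710 were lower and 109 of the 194 higher at E-L35 in both vintages. Over all 17707 mRNAs, 6008 were higher by any amount in both, and the number lower was not taken. Since GT of 2011 was ahead, its level was also set against CL at E-L35 of 2011, a choice made after the data were seen. That GT level had also helped choose the members, so the counts below are partly fixed by it. No share over all mRNAs was taken. Of the 710, 326 were also 2-fold lower than CL at E-L35, and of the 194, 71 were also 2-fold higher. In 2011 only, 134 of 588 and 198 of 1080 passed the same limit.

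Among the mRNAs lower in GT in both vintages were regulators of stress responses. The list of WRKY factors had 20 members measured, of which 13 were 2-fold or more lower in 2011, 7 in 2010 and 6 in both. Over all mRNAs 14.9% were 2-fold or more lower in 2011, 9.71% in 2010 and 4.01% in both. In the 2011 test edgeR called 1 WRKY member, against 0.436% of all mRNAs called lower. DESeq2 called 7, against 1022 of all 19026 mRNAs in either direction. WRKY33-like (XM_002264938.2), whose Arabidopsis relative acts in defence against fungi, had 77 counts (3.86 RPKM) in GT against 2035 counts in CL in 2011. In 2010 it had 22 counts (2.99 RPKM) in GT against 1242 counts (34.2 RPKM) in CL. GT did not overlap CL, and the log2 ratio was -3.84 in 2011 (95% counting interval -4.21 to -3.53) and -3.49 in 2010 (-4.21 to -2.92). Over both vintages edgeR's log2 ratio was -3.70 ± 0.66 (SE), with an adjusted p of 0.0936, and DESeq2's adjusted p was 4.79e-06. By E-L35 WRKY33-like had 11.2 RPKM in GT against 9.86 in CL in 2011, and 2.93 against 3.27 in 2010.

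Other WRKY members were lower in GT as well, though by less than WRKY33-like in 2010. WRKY6-like (XM_002263079.1), related to an Arabidopsis factor of senescence and phosphate supply, had 8.55 RPKM in GT against 100.5 in CL in 2011, and 6.78 against 56.1 in 2010. By E-L35 it had 13.6 RPKM in GT against 31.5 in CL in 2011, and 7.85 against 10.9 in 2010. WRKY41-like (XM_002272684.1) had 7.67 RPKM in GT against 170.0 in CL in 2011, and 9.19 against 77.9 in 2010. WRKY46-like (XM_002280995.1) was 17.7-fold lower in GT in 2011 and 3.13-fold lower in 2010. In all of these GT lay below CL at E-L31 in both years, and over both vintages none passed in edgeR. DESeq2 gave an adjusted p of 3.49e-05 for WRKY6-like, 0.00688 for WRKY41-like and 0.0352 for WRKY46-like.

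**Figure D4:**
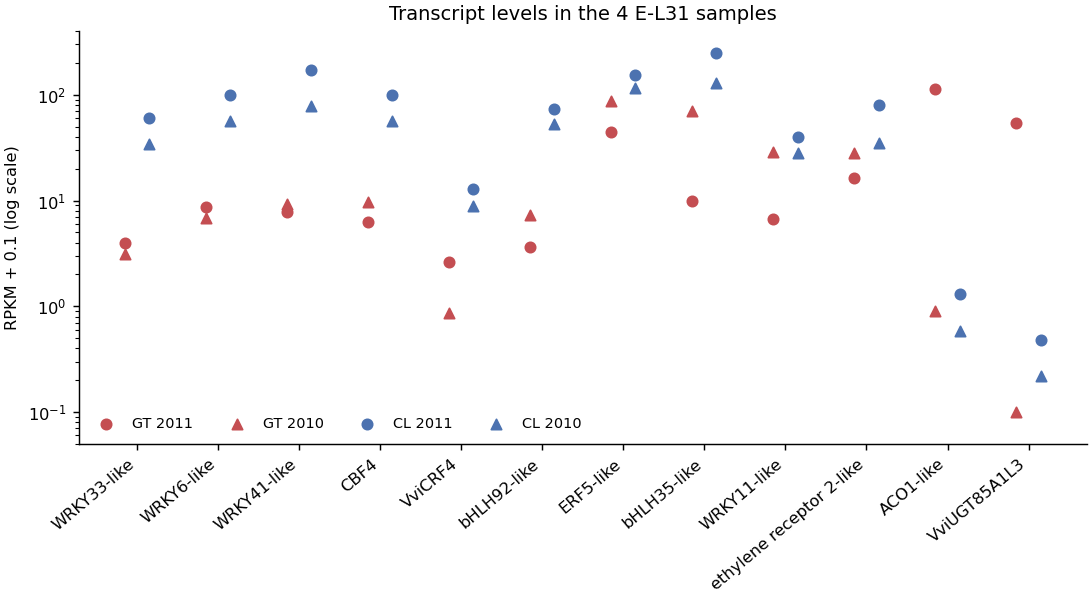
RPKM plus 0.1 (log scale) of 12 mRNAs in the 4 E-L31 samples, GT in red left of CL in blue, circles for 2011 and triangles for 2010. For WRKY33-like, WRKY6-like, WRKY41-like, CBF4, VviCRF4 and bHLH92-like both GT points lie well below both CL points. For WRKY11-like, ACO1-like and VviUGT85A1L3 the GT circle alone stands apart.

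The ERF family had 50 members measured. In 2011, 39 were 2-fold or more lower in GT, 16 of them from 1 run of ERF5-like genes described below. In 2010, 12 were 2-fold or more lower, 3 of them from that run, and 11 were lower in both. Members of the run share reads, so they are not independent. Over all mRNAs the shares lower in 2011, in 2010 and in both were 14.9%, 9.71% and 4.01%. Of the ERF members: None of the ERF members was called by edgeR, and DESeq2 called 2 over both vintages. Over all 19026 mRNAs tested DESeq2 called 1022, 109 and 453. CBF4 (XM_002280061.1), of the family that switches on cold and drought genes, had 6.24 RPKM in GT against 100.2 in CL in 2011, and 9.62 against 56.5 in 2010. By E-L35 CBF4 had 13.3 RPKM in GT against 12.4 in CL in 2011, and 4.77 against 8.11 in 2010. VviCRF4 (XM_002267364.1), a cytokinin response factor, had 2.55 RPKM in GT against 12.8 in CL in 2011, and 0.77 against 8.81 in 2010. ERF109-like (XM_002282133.2), linked to wounding and jasmonate in Arabidopsis, was 20.7-fold lower in GT in 2011 and 3.86-fold lower in 2010. ERF4-like (XM_002276179.2), whose Arabidopsis relative represses ethylene targets, had 125.3 RPKM in GT against 430.0 in CL in 2011, and 120.0 against 242.0 in 2010, so the vintage also moved it within CL.

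Members of other families were lower in both years as well. bHLH92-like (XM_002284195.1) was 19.0-fold lower in GT in 2011 and 7.27-fold lower in 2010. MYC2 (XM_002264373.1), a hub of jasmonate signalling, had 12.3 RPKM in GT against 42.9 in CL in 2011, and 18.9 against 38.7 in 2010. GATA5-like (XM_002274836.1) had 7.36 RPKM in GT against 68.6 in CL in 2011, and 12.3 against 39.1 in 2010. Scarecrow-like 13 (XM_002272365.2), which acts in light signalling in Arabidopsis, was 5.71-fold lower in GT in 2011 and 2.44-fold lower in 2010. Heat stress factor A-4b-like (XM_002278001.2) had almost the same ratio in both years, -1.16 in 2011 and -1.06 in 2010. ATHB-12-like (XM_002280012.1), a homeodomain factor induced by drought in Arabidopsis, had log2 ratios of -2.86 in 2011 and -1.06 in 2010. In each of these regulators, the GT samples lay below the CL samples of both years.

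Among terpene synthases 3 of the 10 measured were lower in both vintages, and among glucosyltransferases 2 of 18, against 4.01% of all mRNAs. VviUGT88A1L3, also called VviGT7 (XM_002276510.1), a glucosyltransferase, had 24.9 RPKM in GT against 64.5 in CL in 2011, and 27.3 against 67.6 in 2010. Its log2 ratio was -1.27 in 2011 and -1.32 in 2010, with 82.3% of its counts unique. A 1-deoxy-D-xylulose-5-phosphate synthase (XM_002271549.1), of the family that starts the plastid route to monoterpenes, had 0.88 RPKM in GT against 4.39 in CL in 2011, and 1.07 against 3.71 in 2010. The TPS-b terpene synthase XM_002275070.1 had 0.05 RPKM in GT against 3.15 in CL in 2011, and 0.29 against 1.26 in 2010, and it was called lower in the 2011 test (edgeR log2 ratio -5.66 ± 0.99, SE, adjusted p = 0.0443). VviNerL8 (XM_003635234.1), a TPS-g synthase, had 1 count in GT in 2011 and 2 in 2010 against 205 in 2011 and 81 in 2010 in CL, but only 11.8% of its counts were mapped to it alone.

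The mRNAs furthest apart in both vintages carry no name in the files. XM_002264404.1 had 2.54 RPKM in GT against 65.2 in CL in 2011, and 1.95 against 40.4 in 2010. XM_002270146.2 had 4.74 RPKM in GT against 86.9 in CL in 2011, and 2.15 against 40.7 in 2010, with an adjusted p of 0.0936 in edgeR's test over both vintages and 4.31e-07 in DESeq2's. XM_002263150.2 had 0 counts in both GT samples against 107 in 2011 and 45 in 2010 in CL. Among the 12 that led this direction, 7 had no count in GT in 2010. Of all 710, 384 had under 10 counts in GT in 2010 and 103 had none, and for 548 the counting interval of the 2010 ratio lay below 0.

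The mRNAs higher in GT in both vintages were of another kind. Of the 194, 129 (66.5%) had fewer than 50% of their E-L31 counts mapped to them alone, against 12.7% of all 17707 and 11.3% of the 710 lower in both. The median share of such unique counts was 3.93%. With unique counts only, 90 mRNAs were higher in both vintages, and 70 of them were among the 194. The rest of the counts are reads that fit several transcripts and were divided among them by the mapping software. How the division acted on these ratios was not tested.

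The 3 named enzymes of this group had few unique counts. An S-adenosylmethionine decarboxylase (XM_002282668.2), the step that feeds polyamine synthesis, had 294 RPKM in GT against 87.9 in CL in 2011, and 325 against 122 in 2010. Only 1.99% of its counts were unique. A phytoene synthase-like mRNA (XM_002283157.2), the entry to carotenoids, had 23.4 RPKM in GT against 4.77 in CL in 2011, and 16.6 against 6.07 in 2010, with 4.07% unique. VviPSY (XM_002271539.2), the more abundant phytoene synthase, had 100% unique counts and did not pass 2-fold, with log2 ratios of -0.48 in 2011 and -0.04 in 2010. A TPS-g synthase (XM_003635122.1) had 59 counts in GT in 2011 and 2 in 2010, against 0 in 2011 and 1 in 2010 in CL, and 19.4% of them were unique.

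Some members of this group rest on unique counts. XM_002273850.2 had 22.1 RPKM in GT against 2.59 in CL in 2011, and 22.9 against 2.67 in 2010, all from unique counts. Its log2 ratio was 3.12 in 2011 (counting interval 2.74 to 3.67) and 3.02 in 2010 (2.59 to 3.60). At E-L35 it had 8.22 RPKM in GT against 0.21 in CL in 2011, and 4.29 against 1.08 in 2010, so the order of the regions was the same at véraison. XM_002279483.1 had 11.4 RPKM in GT against 0.73 in CL in 2011, and 7.73 against 1.43 in 2010. XM_002278605.2 had 48 counts in GT against 18 in CL in 2011, and 4 against 0 in 2010. None of these 3 passed the edgeR test over both vintages, with adjusted p of 0.109, 0.109 and 0.341. DESeq2 gave 5.57e-05, 0.000100 and 0.274.

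Among the members of the gene lists, 1 mRNA of ethylene synthesis and 1 glucosyltransferase rose in edgeR's 2011 test. The ACC oxidase ACO1-like (XM_002279710.2), of the enzymes that release ethylene, had 114 RPKM in GT against 1.21 in CL in 2011, and 0.80 against 0.48 in 2010. The 2011 test gave a log2 ratio of 6.64 ± 1.12 (SE) with an adjusted p of 0.0343 in edgeR. VviUGT85A1L3 (XM_002268601.2) had 1001 counts in GT against 12 in CL in 2011, and 0 against 4 in 2010, and it was called in the 2011 test (edgeR adjusted p = 0.0363). At E-L35 ACO1-like stood at 40.1 to 77.2 RPKM in all 4 samples, and VviUGT85A1L3 at 6.47 RPKM or more, so both were present in CL by véraison. In edgeR the difference between vintages passed for neither, with edgeR adjusted p of 0.322 and 0.393, while DESeq2 gave 0.0124 and 0.0177. A second ACC oxidase, ACO1 (XM_002273394.2), had 34.7 RPKM in GT against 81.9 in CL in 2011, and 142 against 149 in 2010.

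Among the leaders of the lower direction in 2011 only, a LAF1-like transcription factor had 0 counts in GT against 58 in CL in 2011. In 2010 it had 10 against 38. The leaders of the higher direction described next have no name in the files. XM_003631448.1 had 511 counts in GT in 2011 and none in the other samples at E-L31, which is at least 309-fold higher in GT than the limit of 3 counts allows in CL in 2011. Only 48.3% of its counts were unique. XM_002275163.2 had 292 RPKM in GT against 7.61 in CL in 2011, and 7.37 against 8.10 in 2010, and rose in the 2011 test (edgeR log2 ratio 5.36 ± 0.72, SE, adjusted p = 0.0162). XM_002278523.2 had 335 RPKM in GT against 9.22 in CL in 2011, and 6.98 against 5.73 in 2010, and did not pass in edgeR (adjusted p = 0.129), though it did in DESeq2 (0.00515). At E-L35 XM_002275163.2 and XM_002278523.2 had 133 to 961 RPKM in the 4 samples of that stage.

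The 4 transcription factors that fell in edgeR's 2011 test differed less in 2010. WRKY11-like (XM_002262739.2) had 6.55 RPKM in GT against 40.1 in CL in 2011, and 28.7 against 28.1 in 2010. It fell in the 2011 test (edgeR log2 ratio -2.52 ± 0.45, SE, adjusted p = 0.0396). bHLH128-like (XM_002268499.2) fell as well, with 1.58 RPKM in GT against 11.4 in CL in 2011, and 11.4 against 9.34 in 2010 (adjusted p = 0.0405 in edgeR for 2011). bHLH35-like (XM_002263963.2) had 9.72 RPKM in GT against 247 in CL in 2011, and 69.7 against 129 in 2010, and NF-YC9-like (XM_002262845.2) had 13.3 against 42.2 in 2011 and 18.1 against 27.0 in 2010. Both fell in the 2011 test, with edgeR adjusted p of 0.0497 and 0.0464. In edgeR's test of the difference between vintages the 4 had adjusted p between 0.147 and 0.430. In DESeq2's it was 0.00993 for WRKY11-like, 0.0189 for bHLH128-like, 0.0488 for bHLH35-like and 0.499 for NF-YC9-like, so the 2 tools differ on the first 3.

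The ERF5-like mRNAs formed a block. In the gene order of the RefSeq assembly ASM3070453v1, 16 of them lie within a run of 21 protein-coding genes. All 16 were 2-fold or more lower in GT in 2011, with log2 ratios between -5.11 and -1.69 and a median of -3.63. In 2010 3 of them were 2-fold or more lower, the range was -2.65 to 0.60 and the median was -0.05. ERF5-like XM_002282145.2 had 44.3 RPKM in GT against 153 in CL in 2011, and 87.0 against 117 in 2010. XM_002282203.1, XM_003633977.1 and XM_002282217.2 were 2-fold or more lower in both years, 9 of the 16 had a ratio below 0 in 2010, and XM_002282217.2 had 1 count in GT against 152 in CL in 2011, and 2 against 78 in 2010. Unique counts were 30.7% to 100% of their totals. In the 2011 test edgeR called none of the 16 and DESeq2 called 11, against 1022 of all 19026 mRNAs.

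Other list members were 2-fold or more lower in 2011 only. Ethylene receptor 2-like (XM_002284471.1) had 16.3 RPKM in GT against 80.4 in CL in 2011, and 27.9 against 35.3 in 2010, with an adjusted p of 0.0678 in edgeR's 2011 test. The scarecrow-like factor PAT1-like (XM_002274067.2), of phytochrome signalling in Arabidopsis, had 46.4 RPKM in GT against 149 in CL in 2011, and 80.9 against 102 in 2010. VviFPPS (XM_002272605.2), which makes the precursor of sesquiterpenes, had 31.3 RPKM in GT against 68.7 in CL in 2011, and 51.5 against 70.4 in 2010. In all 3 the CL samples were above the GT samples, and the 2010 ratio was under 0.5 in size. The counting interval of the 2010 ratio nevertheless lay below 0 in all 3. It was -0.534 to -0.175 for ethylene receptor 2-like, -0.471 to -0.229 for PAT1-like and -0.651 to -0.282 for VviFPPS. In the 2011 test edgeR's adjusted p was 0.119 for PAT1-like and 0.0875 for VviFPPS, and DESeq2's was 0.0204 and 0.0211.

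The vintages differed by test for 59 mRNAs. Of the 51 with the higher ratio in 2011, 33 had 2-fold ratios in opposite directions. The only member of the gene lists among them was a carotenoid cleavage dioxygenase 4-like mRNA (XM_002270125.1), of the enzymes that cut carotenoids into scent compounds. It had 13.2 RPKM in GT against 6.89 in CL in 2011, and 0.66 against 3.96 in 2010. The difference of the log2 ratios was 3.61 ± 0.52 (SE), with an adjusted p of 0.0312 in edgeR, and the 2010 value rests on 5 counts in GT. Far more abundant was XM_002275826.2, which has no name, with 2223 RPKM in GT against 39.3 in CL in 2011, and 7.44 against 84.8 in 2010 (difference 9.43 ± 1.21, SE, edgeR adjusted p = 0.0196). XM_002272843.2 and XM_002280264.2 showed the same form, higher in GT in 2011 and lower in GT in 2010, with differences of 9.05 and 7.32. At E-L35 these 3 mRNAs were at 55.4 RPKM or more in each of the 4 samples.

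Other members of the lists went opposite ways without passing the test of the difference. VviUGT85A2L4, also called VviGT14 (XM_002285734.2), a monoterpenol glucosyltransferase, had 14.5 RPKM in GT against 4.49 in CL in 2011, and 0.83 against 2.04 in 2010 (difference 3.08 ± 1.15, SE, edgeR adjusted p = 0.372). Capsanthin/capsorubin synthase-like (XM_002273826.1) had 6.16 RPKM in GT against 14.9 in CL in 2011, and 39.7 against 14.02 in 2010, with log2 ratios of -1.17 and 1.48. CHS3 (XM_002263983.1), a chalcone synthase at the entry to flavonoids, had 33.6 RPKM in GT against 72.3 in CL in 2011, and 49.9 against 15.6 in 2010, and its GT values lay between the CL values of the 2 years.

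A smaller set differed in 2010 only. VviHMGR3 (XM_002275791.2), of the key step of the mevalonate route, had 41.3 RPKM in GT against 39.2 in CL in 2011, and 84.5 against 38.0 in 2010. PR10.2 (XM_002274206.2), a pathogenesis-related protein, had 106 RPKM in GT against 83.0 in CL in 2011, and 36.0 against 261 in 2010. TCP9-like (XM_002272860.1) had 16.7 against 15.1 RPKM in 2011, and 7.53 in GT against 25.4 in CL in 2010. The unnamed XM_002265724.1 led the higher direction, with 174 counts in GT against 18 in CL in 2010 and 2 against 6 in 2011. Of the 352 higher in 2010 only, 48.3% had fewer than 50% unique counts.

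Over the gene lists, more regulators passed 2-fold in 2011 than in 2010. The factors were taken from tables that the study drew up from co-expression and regional differences in these samples, so their direction is not independent evidence. Of 189 factors measured in 11 families, 105 were 2-fold or more lower and 5 higher in GT in 2011, and 33 were lower and 9 higher in 2010. Their median ratio was -1.16 in 2011 and -0.14 in 2010, against -0.04 and -0.05 for all mRNAs. The 27 that were lower in both vintages held 11 ERF and 6 WRKY members, and none of the 189 was higher in both. In edgeR's 2011 test 4 fell and 0 rose. DESeq2 called 43 of the 191 factors tested, against 1022 of all 19026 mRNAs.

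The counts by family stand against 14.9% of all mRNAs 2-fold or more lower in 2011 and 9.71% in 2010. Of 39 bHLH mRNAs, 22 were 2-fold or more lower in GT in 2011 and 3 in 2010, with median ratios of -1.22 and 0.01. Of 27 bZIP and homeodomain-leucine zipper mRNAs, 10 were lower in 2011 and 2 in 2010. In 2010 the counts of both families were near the share of all mRNAs. The 5 heat stress factors, which switch on chaperone genes, had medians of -1.48 in 2011 and -0.80 in 2010, and 2 of them were lower in both. All 5 scarecrow-like mRNAs were 2-fold or more lower in 2011 and 1 was in 2010. The 9 NF-Y subunits had medians of -0.70 and 0.11, the 10 GATA factors -0.81 and -0.09, and the 10 MYB factors -0.88 and -0.21. The 11 TCP factors, growth regulators, had medians of -0.07 and 0.40, and the 3 MADS-box mRNAs -0.83 and -1.40. No family median lay above 0 in 2011.

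The hormone lists were small. The ethylene and abscisic acid lists were taken from a table of the study that holds genes differing between the regions at some stage. These samples helped choose their members, so their shares against all mRNAs are partly fixed and are not independent evidence. The 8 mRNAs of the ethylene synthesis list, which also holds polyamine synthesis, had a median ratio of 0.43 in 2011 and 0.14 in 2010. By 2-fold, 3 were higher and 1 lower in 2011, against 7.7% and 14.9% of all mRNAs. The 3 higher were ACO1-like, the S-adenosylmethionine decarboxylase and an aminotransferase (TAT2-like). The 10 of ethylene perception and response had medians of -2.12 and -0.31, with 1 higher and 6 lower in 2011. Of these 6, 4 are ERF5-like mRNAs of the run described above. The 6 of the abscisic acid synthesis and carotenoid list had medians of -0.39 and -0.72, and the 5 of abscisic acid response had -0.17 and 0.13. The 6 include an abscisic acid 8'-hydroxylase, an enzyme that breaks the hormone down, at -0.29 in 2011 and -1.48 in 2010. Of 10 defence mRNAs 4 were measured, with medians of 1.25 in 2011 and -1.12 in 2010. The 2 flavonoid mRNAs had a median of 0.91 in both years, but from unlike values. CHS3 was at -1.01 in 2011 and 1.65 in 2010, and the other at 2.825 and 0.173. In these lists edgeR's 2011 test called ACO1-like alone. DESeq2's called 2 of the ethylene synthesis list (ACO1-like and the S-adenosylmethionine decarboxylase), 5 of ethylene response and 3 of the abscisic acid synthesis list. Over all mRNAs DESeq2 called 1022 of 19026 in that test.

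**Figure D5:**
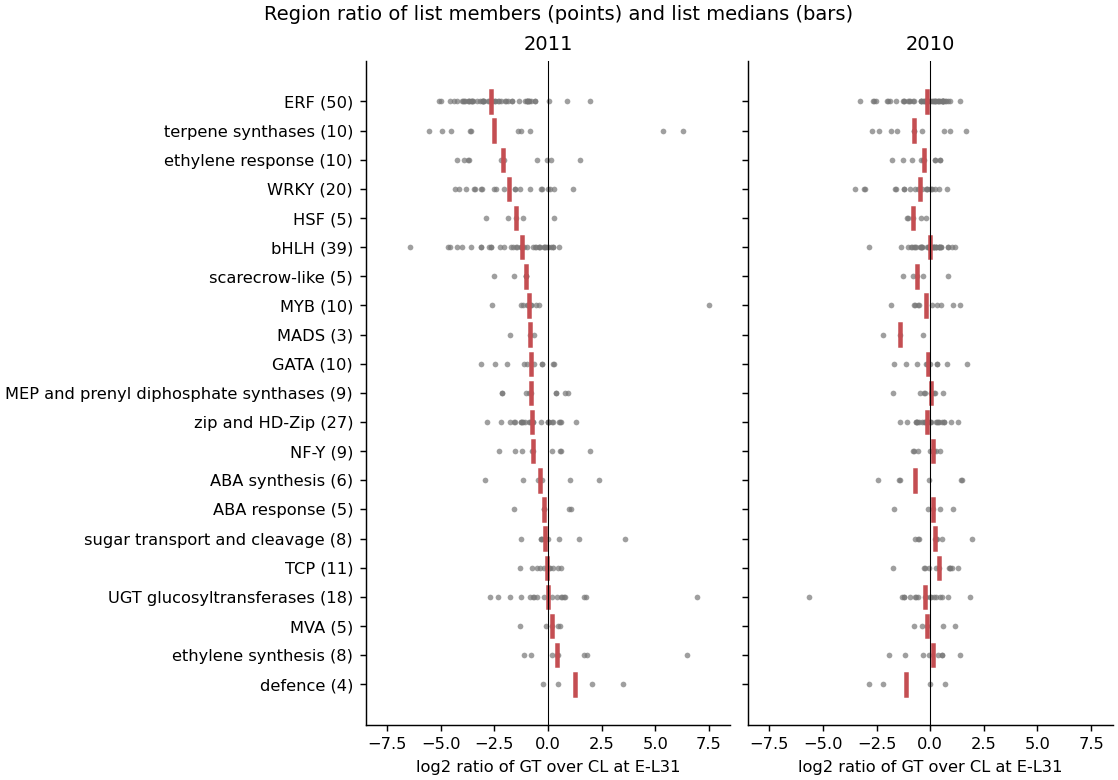
Log2 ratio of GT over CL at E-L31 for the members of each gene list (points) and the list median (red bar), in 2011 on the left and in 2010 on the right, with the number of members measured after each name. The ERF, WRKY and terpene synthase medians lie between -2.66 and -1.80 in 2011 and between -0.76 and -0.16 in 2010.

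The metabolic lists spread on both sides of 0. The 5 mevalonate mRNAs had median ratios of 0.17 in 2011 and -0.14 in 2010, and the 9 of the plastid route and prenyl diphosphate synthases -0.78 and 0.02. VviHDR (XM_002284623.2), the last enzyme of the plastid route, was at 339 RPKM in GT against 281 in CL in 2011, and 214 against 251 in 2010. Of 31 terpene synthases 10 reached 40 counts. Of these, 7 were 2-fold or more lower in 2011 and 4 in 2010, against 14.9% and 9.71% of all mRNAs. The 18 glucosyltransferases measured had medians of 0.01 and -0.23. The 8 mRNAs of sugar transport and cleavage measured had medians of -0.15 and 0.23, and the tonoplast transporter TMT2 (XM_002282939.1) had 224 RPKM in GT against 87.3 in CL in 2011, and 115 against 77.3 in 2010, with 5.88% unique counts. The 6 mRNAs of the abscisic acid synthesis list lay in 4 patterns with VviPSY in none. Among the receptors PYL4-like (XM_002264122.2) was lower in both vintages, at 1.01 and 1.03 RPKM in GT against 3.64 and 3.74 in CL in 2011 and 2010.

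The patterns were also read for features the ratios did not use. In the assembly's gene order, 57 of the 446 placed mRNAs lower in both vintages (12.8%) had another such mRNA as direct neighbour, and 4.01% of all 11210 placed mRNAs had one. For the 355 placed mRNAs higher in 2011 only the values were 5.07% and 3.28%, and for the 732 lower in 2011 only 11.5% and 6.97%. None of the 57 placed mRNAs higher in both vintages had such a neighbour, against 0.535% of all. Median transcript length was 1368 bases in those higher in both, 1481 in those lower in both and 1524 over all mRNAs. Median counts over the 4 samples were 122 in those higher in both and 407 in those lower in both, against 951 over all, so both patterns held mRNAs of low abundance.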

How the data were processed

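RNA-seq reads of each library were mapped by the authors with CLC Genomics Workbench to RefSeq grape mRNAs. Reads that fit several transcripts were shared in proportion to the unique reads. Total and unique counts per transcript, RPKM values (counts divided by transcript length and mapped total) and lengths were deposited by the authors for 23984 transcripts. Here the total counts were tested as deposited, and 2 libraries of a sample at E-L35 and E-L38 were summed. Depth was 3798921 to 26627006 counts per sample, and intervals on ratios cover counting error only.

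Transcripts with at least 10 counts in 2 of the 16 samples (19026) were fitted with edgeR 4.0.16 (TMM scaling, quasi-likelihood test, R 4.3.3), with Benjamini-Hochberg adjustment over all of them. GT over CL was fitted over 8 groups of region and stage, with the vintages as replicates. For single vintages each E-L31 sample had a coefficient of its own, with the 6 residual degrees of freedom from later stages. A call needed an adjusted p of at most 0.05 and a log2 ratio of at least 1 in size. Patterns used log2 CPM with a prior count of 2, the limit 1, and 0.5 for the other vintage in the single-vintage patterns. Alternatives were DESeq2 1.42.0, limma 3.58.1 on log2(RPKM + 1) for transcripts with a mean RPKM of at least 1, other scalings, filters and limits, unique counts, and samples left out. The fit was tested on simulated data.

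Members and lists were chosen with earlier results of these data known. Named transcripts were those leading each pattern (12 per direction in both vintages, 10 in 2011 only, 5 in 2010 only and 5 in opposite directions), the list members in a pattern or called in a test, and the most abundant member of each list. Names came from the study's tables and RefSeq (419 of 23984), and gene order from RefSeq assembly ASM3070453v1. Lists of stilbene, light, photosynthesis, cell wall, water channel and seed genes had fewer than 3 named members and were not used. No sequences are shown.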

Additional observations from a re-analysis of the deposited data

Results flagged for a closer look

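The ratio of GT over CL differed between the vintages for 59 transcripts in edgeR's test of the difference (2011 minus 2010). Those described above were XM_002275826.2 with a difference of 9.43 on the log2 scale, XM_002272843.2 with 9.05, XM_002280264.2 with 7.32 and the carotenoid cleavage dioxygenase 4-like XM_002270125.1 with 3.61. In all 4 the ratio was above 0 in 2011 and below 0 in 2010, and each vintage had 1 library per region.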

How the results depend on the processing

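The test over both vintages called 0 transcripts in edgeR, 453 in DESeq2 and 93 in limma, and 0 to 749 when 1 sample was left out in edgeR, where the lone sample is assumed to vary like the other groups. The highest count came without GT of 2010. With the vintage as a replicate block it called 0, with 2676 at an unadjusted p under 0.05, and deviations of samples of the same year correlated at 0.373 over the 2 pairs. DESeq2 called 109 in 2010, 1022 in 2011 and 344 for the difference, against 0, 236 and 59 in edgeR; the cause was not tested. Other scaling, no filter and unique counts kept all 4 edgeR counts within 1.5 times.

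With a limit of 1.5 in place of 1, 53 were higher and 330 lower in both vintages, 244 and 527 in 2011 only, 136 and 172 in 2010 only, and 156 opposite, fewer by construction. With at least 200 counts, 73 were higher and 443 lower in both, 169 and 234 in 2010 only, and 256 opposite. Unique counts left 90 higher in both. Requiring GT of 2011 to be 2-fold beyond CL at E-L35 as well, a choice made after the data were seen, left 71 and 326 in both vintages and 134 and 198 in 2011 only. This requirement reuses the GT level that helped choose the members. The shallow GT library of 2010 limits the ratios of low transcripts.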
